A study of Caenorhabditis elegans with 2 samples.

Results

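snoRNA genes that lie inside protein-coding genes were examined for ELT-3 binding in larvae of the first stage, L1, of Caenorhabditis elegans. A member is a gene of biotype snoRNA in the Ensembl WBcel235 annotation that lies wholly within a protein-coding gene, its host, and each was taken with 250 bp on either side. The annotation holds 346 snoRNA genes on the 6 chromosomes, of which 216 are members and 130 lie outside hosts. Members sit in 192 hosts, 182 of them on the strand of the host, 33 on the opposite strand and 1 in hosts of both strands. They were 54 to 325 bp long with a median of 127 bp, against a median of 135 bp outside hosts.

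The data are chromatin immunoprecipitation sequencing (ChIP-seq) peak lists from whole worms of mixed sex of strain OP75 (unc-119(ed3) III; wgIs75), in 1 group of 2 biological replicates with no second condition. Per the labels the worms carry a stable transgene for ELT-3, a GATA-type transcription factor of the epidermis, with GFP and FLAG at its C-terminus, and the antibody target is given as elt-3. The peaks can therefore stand for the tagged protein alone or for all ELT-3, and signal from different tissues cannot be told apart in whole worms. The optimal list holds the 1262 peaks that the authors kept for reproducibility out of the 5659 of the pooled list, which was called on the reads of both replicates together and includes background. The replicate lists hold 25325 and 26500 peaks. A summit is the base at which the authors place a peak, and signal is the strength they gave it, whose scale is not stated. Read depth is unknown for these lists.

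snoRNAs guide the chemical modification of ribosomal and spliceosomal RNA. Box C/D snoRNAs guide methylation of the ribose, with the methylase fibrillarin, and box H/ACA snoRNAs guide conversion of uridine to pseudouridine. In animals many snoRNAs are cut from the introns of a host gene after splicing and share its promoter. A snoRNA on the other strand of its host cannot be made from that host's transcript, and in C. elegans some intronic snoRNA genes are known to have promoters of their own. Some snoRNA genes of worms and other organisms are transcribed by RNA polymerase III, which at tRNA genes uses internal promoter elements called the A box and the B box.

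Sequences are shown for some of the members with a summit of the optimal list. These summits lay mostly in the first 100 bp before the snoRNA gene, and the same letters recurred there. Each run holds the 120 bases before the gene and its first 30 bases, 5′ to 3′ on the strand of the snoRNA, from the RefSeq copy of WBcel235. Capitals mark CGNAACNCG followed after 5 bases by TGTC, called here the paired element.
T06D8.11, chrII:11224062-11224211, + strand: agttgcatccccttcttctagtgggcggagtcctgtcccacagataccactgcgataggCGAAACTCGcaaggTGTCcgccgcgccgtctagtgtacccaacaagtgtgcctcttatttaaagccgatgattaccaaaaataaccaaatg
smy-2, chrIV:9511437-9511586, - strand: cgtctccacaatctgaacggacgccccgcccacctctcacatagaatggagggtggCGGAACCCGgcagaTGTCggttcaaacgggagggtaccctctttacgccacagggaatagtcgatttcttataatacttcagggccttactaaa
C16D9.11, chrV:8228940-8229089, - strand: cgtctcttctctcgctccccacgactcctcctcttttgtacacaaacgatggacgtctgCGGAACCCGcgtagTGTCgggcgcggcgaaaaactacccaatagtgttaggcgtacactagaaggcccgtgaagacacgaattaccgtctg
K02C4.7, chrII:8091589-8091738, + strand: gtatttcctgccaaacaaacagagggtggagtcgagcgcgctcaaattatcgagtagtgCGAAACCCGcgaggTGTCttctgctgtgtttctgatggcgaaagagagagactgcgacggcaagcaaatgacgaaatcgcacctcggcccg
Y55F3BR.9, chrIV:867104-867253, - strand: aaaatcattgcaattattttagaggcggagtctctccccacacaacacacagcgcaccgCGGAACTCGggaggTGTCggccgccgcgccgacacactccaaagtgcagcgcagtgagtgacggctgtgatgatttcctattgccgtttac
C07A9.14, chrIII:9717260-9717409, + strand: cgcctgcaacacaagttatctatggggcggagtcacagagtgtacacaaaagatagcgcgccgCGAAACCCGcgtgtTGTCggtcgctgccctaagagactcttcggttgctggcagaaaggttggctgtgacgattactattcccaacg

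In another set, capitals mark GTTCNANNC, the core of the B box. The summits of M106.6 and F11A10.9 lay 20 bp before the first base of the gene, and those 2 genes are followed by C51F7.3, which has 2 matches, and by T04A8.17, which has neither element.
M106.6, chrII:10840197-10840346, + strand: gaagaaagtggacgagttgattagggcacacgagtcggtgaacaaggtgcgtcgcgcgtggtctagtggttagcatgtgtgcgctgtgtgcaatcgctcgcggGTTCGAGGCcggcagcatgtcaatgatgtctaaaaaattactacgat
F11A10.9, chrIV:12086589-12086738, + strand: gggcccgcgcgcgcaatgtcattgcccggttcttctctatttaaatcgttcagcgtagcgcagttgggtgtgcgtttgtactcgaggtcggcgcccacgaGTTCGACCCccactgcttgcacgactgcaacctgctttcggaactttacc
C51F7.3, chrV:12303588-12303737, + strand: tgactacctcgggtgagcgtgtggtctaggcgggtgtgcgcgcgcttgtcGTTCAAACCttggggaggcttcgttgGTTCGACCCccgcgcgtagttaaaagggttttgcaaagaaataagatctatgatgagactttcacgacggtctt
T04A8.17, chrIII:4689742-4689891, - strand: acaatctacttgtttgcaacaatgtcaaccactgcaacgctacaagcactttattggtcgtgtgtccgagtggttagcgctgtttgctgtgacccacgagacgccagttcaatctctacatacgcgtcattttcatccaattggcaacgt

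Of the 216 hosted snoRNA genes, 17 had a summit of the optimal list within 250 bp, 7.87% (95% Wilson interval 4.97 to 12.2%). These 17 genes shared 16 summits, in 16 hosts. For the background, the genome was cut into tiles of 627 bp, the width of the median member with its flanks: 0.474% of the tiles wholly inside a protein-coding gene held such a summit, and 0.785% of all tiles. In the pooled list 43 members had a summit, 19.9% (15.1 to 25.7%), against 3% of the tiles inside genes and 3.51% of all tiles. The 43 members shared 40 summits. Of all 346 snoRNA genes, 9.83% had a summit of the optimal list and 24.6% one of the pooled list.

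In the pooled list members had summits less often than snoRNA genes outside hosts, past the threshold of 0.05, and in the optimal list the difference did not pass. Outside hosts 17 of 130 genes had a summit of the optimal list, 13.1% (8.33 to 19.95%), a difference of -5.21 percentage points (Fisher's exact p = 0.1362, adjusted over 6 tests 0.15). In the pooled list 43 of 216 members compared with 42 of 130 genes outside hosts, which was 32.3% (24.9 to 40.8%; odds ratio 0.521, Fisher's exact adjusted p = 0.02095). Windows that reach a protein-coding promoter, from 1000 bp before to 250 bp after a transcript start, were met by 91 members and 54 genes outside hosts. Without these genes 29 of 125 members and 23 of 76 genes outside hosts had a pooled-list summit (Fisher's exact adjusted p = 0.4791). The call was also lost with windows of 500 bp (exact adjusted p = 0.1602), with peak overlap in place of summits (0.06932), without members that overlap an exon (0.05146) and without replicate 1 (17.6% against 27.7%, exact adjusted p = 0.06108), while without replicate 2 the optimal-list comparison passed (5.56% against 13.1%, exact adjusted p = 0.02542).

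Other small RNA genes inside protein-coding genes gave lower shares in both lists, with no test made. Of 63 hosted snRNA genes, which encode spliceosomal and related RNAs, 6.35% had a summit of the optimal list and 11.1% one of the pooled list. Of 290 hosted tRNA genes the shares were 2.41% and 15.2%. Of 106 hosted miRNA genes they were 0.943% and 7.55%, and of 3393 hosted genes of biotype ncRNA 1.77% and 7.22%. Hosted piRNA genes, 5878 of them, lay lowest, at 0.0681% and 1.31%. The snRNA intervals in both lists and the tRNA interval in the pooled list overlap those of members. So does the miRNA interval in the optimal list (0.167 to 5.15%), by a narrow margin. A tRNA, snRNA, rRNA or miRNA gene lay in the window of 1 member and of 2 snoRNA genes outside hosts, and none of the 43 members with a summit was among these.

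**Figure D1:**
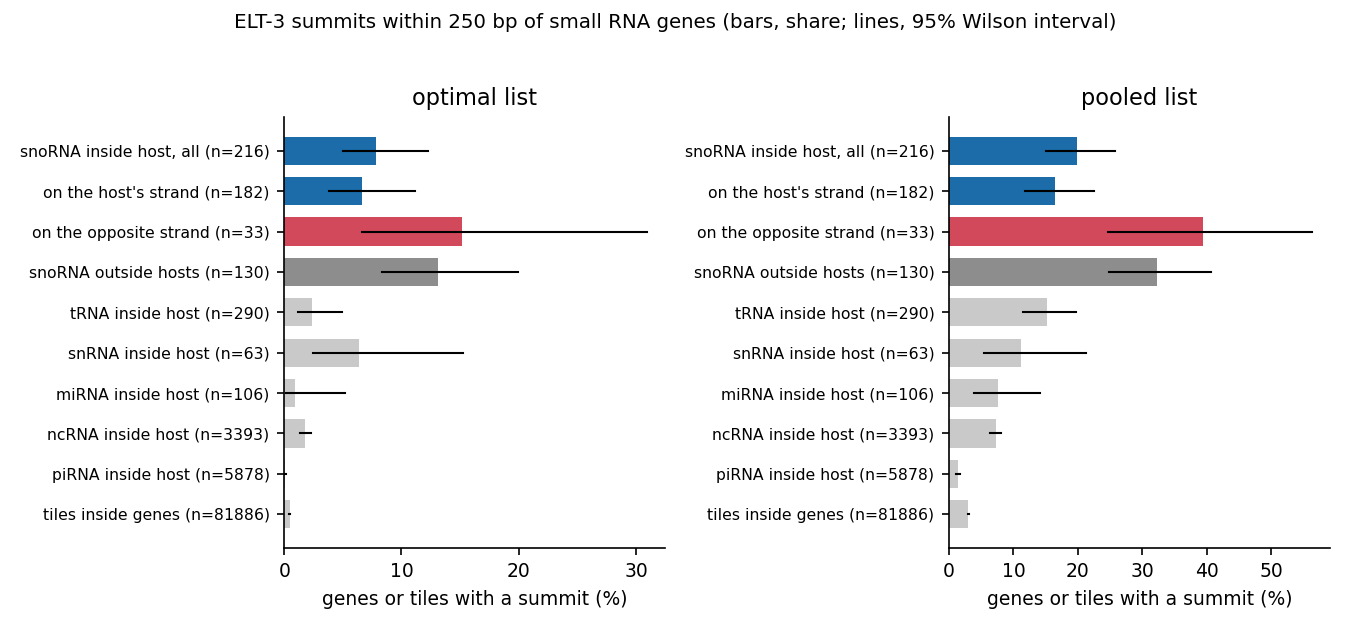
Share of genes with an ELT-3 summit within 250 bp (x axis, percent) for hosted snoRNA genes, snoRNA genes outside hosts, other hosted small RNA genes and tiles of 627 bp inside protein-coding genes; bars are shares, lines 95% Wilson intervals, left the optimal and right the pooled list. Hosted snoRNA genes stood at 7.87% and 19.9%, above the tiles at 0.474% and 3%, and the interval of the 33 genes on the opposite strand is the widest of the snoRNA groups.

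In the pooled list members on the strand of their host had summits less often than members on the opposite strand, and in the optimal list this difference did not pass. In the optimal list 12 of 182 members on the host's strand had a summit, 6.59% (3.81 to 11.2%), against 5 of 33 on the opposite strand, 15.2% (6.65 to 30.9%; Fisher's exact adjusted p = 0.15). In the pooled list 30 of 182 had one, 16.5% (11.8 to 22.6%), against 13 of 33, 39.4% (24.7 to 56.3%; odds ratio 0.304, Fisher's exact adjusted p = 0.008899). Many of these summits were weak by the deposited −log10 q-value, which is lower where a peak is less certain. At summits of the pooled list alone it ran from 0.02 to 0.97 on the opposite strand and from 0.02 to 1.24 on the host's strand. The pooled-list call was lost with either replicate alone: without replicate 1 the shares were 16.5% and 24.2% (exact adjusted p = 0.3208), and without replicate 2 they were 12.6% and 24.2% (0.1243). It was also lost in the stronger part of the list, with 21 of 182 against 7 of 33 (exact adjusted p = 0.1885), with windows of 500 bp (0.1399) and without promoter windows (0.3833).

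Summits lay just before the first base of the snoRNA gene. Of the 40 pooled-list summits at members, 28 lay upstream of the nearest member by its strand, 8 inside it and 4 downstream. Between the flanks this was 28 against 4 (exact binomial p = 1.93e-05, adjusted 0.000116). The median position was 35 bp before the first base, and 25 of the 40 summits (62.5%) lay within the first 100 bp upstream. Of the 16 optimal-list summits 14 lay upstream, 2 inside and 0 downstream, with a median of -34.5 bp, where negative is upstream, and a range from -136 to 57 bp. Outside hosts 29 of 43 pooled-list summits lay upstream, with a median of -31 bp.

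The same was seen over a wider span. In the 100 bp before the first base there were 26 pooled-list summits at the 216 members, and from the first base to 100 bp after it 3.70 per 100 members. In the other bins of 100 bp within 1000 bp on either side there were 0 to 2.78 per 100 members. Per 100 genes the value before the start was 9.89 on the host's strand, 24.2 on the opposite strand and 19.2 outside hosts, and the mean over the genome was 0.564 per 100 bins. Members on the host's strand had 28 summits over 200 and up to 1000 bp upstream, and 11 from 200 to under 1000 bp downstream of the first base. Outside hosts these counts were 10 and 11, and the difference was not tested.

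**Figure D2:**
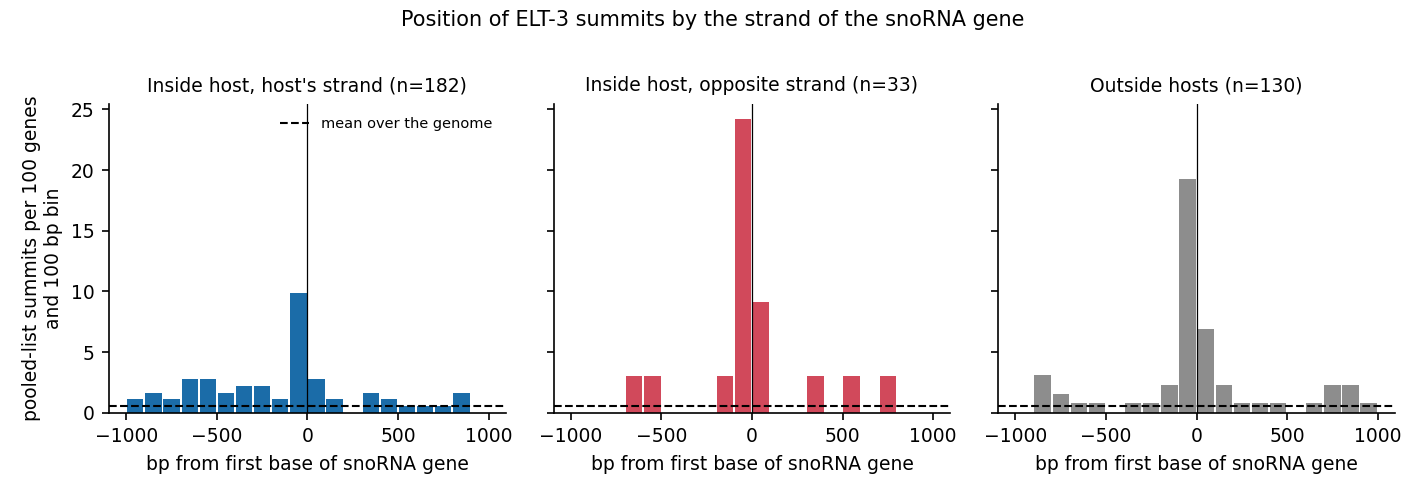
Pooled-list summits per 100 genes in bins of 100 bp (y axis) by distance from the first base of the snoRNA gene along its own strand (x axis, bp), for 182 hosted genes on the host's strand, 33 on the opposite strand and 130 outside hosts; the dashed line is the mean over the genome, 0.564. In each panel the highest bar is the bin before the first base, at 9.89, 24.2 and 19.2.

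A minority of these summits lay at the promoter of the host, with no background share worked out to compare it with. Of the 40 pooled-list summits at members, 9 lay in a promoter window of a host, as did 3 of the 16 of the optimal list. Those 3 were at K02C4.7 in ltd-1, F39B2.14 in tmem-107 and smy-2 in C33A12.3. The median member with a pooled-list summit lay 1536 bp from the nearest host start before it, and the median member without one 1481 bp.

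Positions are given on WBcel235. Of the 17 members with an optimal-list summit, F39B2.14 and C51F7.4 overlapped an exon of a protein-coding gene, and the other 15 lay in introns. Among members on the host's strand, the highest signal was at T06D8.11, in plpr-1. Its summit lay at -19 bp with a pooled signal of 67.7, with 45.1 in replicate 1 (rank 223) and 23.3 in replicate 2 (rank 993). M106.6 lies in mix-1, for a condensin subunit, with a pooled signal of 60.2, and was uneven between replicates: 15.6 in replicate 1 (rank 5010) and 42.2 in replicate 2 (rank 172). smy-2, in C33A12.3, is named after the SmY RNAs, which are linked to trans-splicing, although the annotation files it under snoRNA. Its summit lay at -25 bp with signals of 55.2 in the pooled list, 24 in replicate 1 and 22.6 in replicate 2.

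ZK994.7, at V:8500579-8500645 in the peroxidasin gene pxn-1, had a pooled signal of 54.4, with 30.1 and 33.3 in replicates 1 and 2. F11A10.9, in the RNA-binding protein gene rbm-34, had 53.3, with 21.8 and 30.5. C51F7.4 and C51F7.3, neighbours in the FERM-domain gene frm-7, share 1 summit of signal 51.4, inside C51F7.4 and 52 bp before C51F7.3, with 19.9 and 32.9 in the replicates. Since each list has its own scale, ranks within a list are the better guide: replicate 2 ranked these sites from 371 to 493, and replicate 1 from 735 to 2159.

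F39B2.14, at I:14759178-14759412 in tmem-107, had a pooled signal of 51.4 but 32.2 and 15.2 in replicates 1 and 2, and its summit, at -136 bp, fell within promoter windows of both its host and rps-26, for a ribosomal protein. C16D9.11, in the receptor tyrosine kinase gene rol-3, had 49.5, with 24.7 and 24.3. C08D8.3, at V:8349108-8349187 in C08D8.1, had 49.0, with 32.8 and 23.2. By rank, F39B2.14 stood at 616 in replicate 1 and 3436 in replicate 2, C16D9.11 at 1180 and 894, and C08D8.3 at 582 and 1002. F38E11.14, at IV:9477629-9477699 in the cyclic nucleotide-gated channel gene cng-3, had 47.8, with 24.8 and 17.1, and its summit lay in the promoter window of the hedgehog-related gene wrt-3. T08B2.13, at I:6212696-6212824 in fars-1, for a phenylalanyl-tRNA synthetase subunit, had the lowest pooled signal on the host's strand, 44.9, with 21.8 and 22.3.

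Of the 5 members on the opposite strand, Y55F3BR.9 in Y55F3BR.2 had the highest signal, 60.8, with 28 in replicate 1 and 34.6 in replicate 2. K02C4.7, in the LIM-domain gene ltd-1, had 49.7, with 21.3 and 27.2. T04A8.17, in ppat-1, had 47.4, with 26.8 and 21.6. All of these summits lay from 28 to 39 bp before the gene. ZK484.9, at I:6082738-6082805 in the ABC transporter gene haf-9, had 45.1, with signals of 20 and 30.4, and C07A9.14, in the sodium-calcium exchanger gene ncx-7, had 44.5, with 27.1 and 19.4. The signals of members on the 2 strands overlapped, from 44.9 to 67.7 on the host's strand and from 44.5 to 60.8 on the opposite strand.

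**Figure D3:**
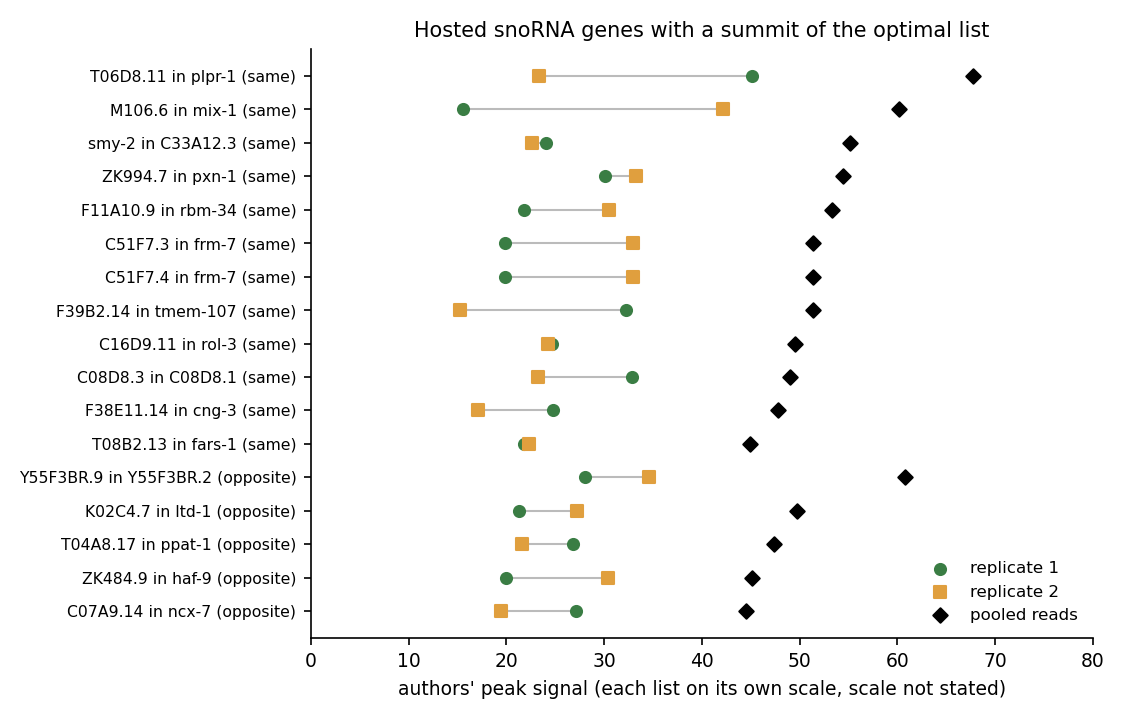
The authors' peak signal (x axis, scale not stated, each list on its own scale) at the 17 hosted snoRNA genes with a summit of the optimal list, by gene and host (y axis), with the strand against the host in brackets; circles are replicate 1, squares replicate 2 and diamonds the pooled reads. T06D8.11 has the highest pooled signal, 67.7, and C07A9.14 the lowest, 44.5; distances between replicate symbols are not comparable, since each list has its own scale.

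All 17 members were within the 1262 strongest peaks of at least 1 replicate, and 7 were so in both. Their ranks ran from 223 to 5010 in replicate 1 (median 1180) and from 172 to 3436 in replicate 2 (median 894). For all 40 pooled-list summits, 37 overlapped a listed peak of both replicates and 3 one of replicate 1 alone, but the replicate lists include background peaks. Where both replicates had a peak, their summits lay a median of 32 bp apart and at most 248 bp, so a single position is uncertain by about as much. The 16 optimal-list summits had a median signal of 50.6, against 56.3 for the whole optimal list, and the highest, 67.7, ranked 381 of the pooled list.

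Another 26 members had a summit of the pooled list alone, which includes background. Their −log10 q-values ran from 0.02 to 1.24, against 1.38 to 2.40 at members with an optimal-list summit. The strongest was W04D2.7, in the innexin gene inx-11, with a pooled signal of 42.5, just under the lowest of the optimal list, and 19.7 and 21.9 in replicates 1 and 2. K11C4.6, in unc-70, for beta-spectrin, had 40.3, Y71F9AM.7, in cogc-3 of the Golgi COG complex, 39.9, and W08G11.6, in W08G11.3, 39.4. F07A11.15, on the opposite strand of din-1, had 39.1, and was uneven, with 11.2 in replicate 1 (rank 15803) and 28.4 in replicate 2 (rank 586). C05D2.15, in madf-11, had 39.0, F19H8.6, in mltn-9, 38.1, and C10C6.8, in the ATPase gene catp-8, 34.6. D1046.6, in the cleavage factor gene cfim-2, also had 34.6, and R166.7, in the kinase gene mnk-1, 34.1. Of these 10, 9 had the summit upstream of the gene, from -177 to -28 bp, and F07A11.15 had it inside, at 51 bp. Y71F9AM.7 had no listed peak in replicate 2.

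Outside hosts the strongest sites reached higher signals than those at members. F59C6.15 had a pooled signal of 79.0, C16D9.10 72.8, Y53F4B.47 71.0 and F25H2.15 68.9, all above the 67.7 of T06D8.11. M7.15 had 63.8, T27A3.9 61.1, F12F6.11 59.7, C54G4.16 57.1, Y74C9A.6 51.9 and T23G11.12 50.5. Their summits too lay upstream, from -115 to -10 bp. The medians were close: 50.6 at members and 51.9 outside hosts in the optimal list, and 39.3 and 40.5 in the pooled list.

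Host genes held 1 member in 168 cases and 2 to 4 in 24. In 20 of these 24 no member had a pooled-list summit. In the other 4, frm-7, lin-14, pdl-1 and Y37E3.8, both members had one, in each case the same summit for both. lin-14, a heterochronic gene for a nuclear protein that sets the timing of early larval development, holds T25C12.11 and T25C12.12 near a weak summit of signal 27.1. pdl-1 has C27H5.9 and C27H5.10 on its opposite strand, with a summit of 29.9, and Y37E3.8 has Y37E3.22 and Y37E3.21 beside a summit of 25.1 in its own promoter window. nol-56, for a core protein of box C/D particles, holds 4 members and none had a summit.

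No member in the listed ribosomal protein and translation factor hosts had a summit, and several of these hosts had one at the promoter. Hosts were listed by gene symbol alone, with rpl, rps or rla for ribosomal proteins. Hosts under other names were not checked for what they encode, among them Y37E3.8, whose 2 members had a pooled-list summit. Over all 216 members the shares were 7.87% in the optimal list and 19.9% in the pooled list, and the listed hosts held only 19 and 5 members. Of 13 ribosomal protein hosts 7 had an optimal-list summit in a promoter window, among them rpl-6 with 3 members and rpl-15, rpl-7A and rps-12 with 2 each. None of the 19 members in these 13 hosts had a summit of either list. With 3 taken as a rough upper limit for a count of 0, this allows a share of up to 15.8% (3 of 19). This limit is not a Wilson interval, and the difference from other members was not tested. Of 3 translation factor hosts, iff-2 and eef-1G had an optimal-list summit in the promoter window and eif-4A3, which is also a helicase of the exon junction complex, did not. None of their 5 members had a summit. By the same rough limit, which is coarse for so few genes, this allows a share of up to 60%. Over all hosts 40 of 192 had an optimal-list summit in a promoter window, 20.8%, against 3.76% of all protein-coding genes, with no test made. A window was drawn at every transcript start, so genes with more starts had more sequence counted. Members in hosts with and without an optimal-list summit in a promoter window had optimal-list summits at similar shares, 4 of 52 (7.69%) and 13 of 164 (7.93%). This difference was not tested. The count of 4 includes the 3 members whose own summit was the promoter summit.

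The proteins of the snoRNA particles were looked at in the same way. Of 8 genes listed, fib-1, for fibrillarin, had an optimal-list summit in its promoter window, with a signal of 54.1. The pooled list added snu-13 (38.7), Y48A6B.3, listed as nhp-2 (32.3), nola-3 (30.6) and nol-56 (25.6). nol-58, dkc-1, for the pseudouridine synthase of box H/ACA particles, and gar-1 had none. This compares with 12.2% of protein-coding genes with a pooled-list summit in a promoter window.

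The GATA motif was less frequent at these summits than at the other summits of the pooled list. AGATAA or AGATAG, or else TGATAA or TGATAG, on either strand, lay within 50 bp of 5 of 40 pooled-list summits at members, 12.5% (5.46 to 26.1%), against 1899 of 5619 other summits of the list, 33.8% (odds ratio 0.280, Fisher's exact adjusted p = 0.008899). In the optimal list 2 of 16 summits at members had it, those of C07A9.14 and C08D8.3, against 634 of all 1262. Outside hosts 5 of 43 pooled-list summits had it. With GATA alone the shares were 45.0% and 58.5% and the difference did not pass (Fisher's exact adjusted p = 0.15), nor did it within 25 bp of the summit (0.1031) or with windows of 500 bp (0.1602). A match describes the sequence and is no evidence of contact, and the lack of one says only that these letters are not in this window.

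Most of the shown sequences hold the paired element or the B box core, but they are a selection. Among members with an optimal-list summit that are not shown, F39B2.14, F38E11.14 and C51F7.4 hold neither element. C08D8.3, ZK994.7, ZK484.9 and T08B2.13, also not shown, hold 1 of them. Both elements were chosen after the sequences at summits of both groups of snoRNA genes had been seen, so the counts are descriptions with no test. In the 150 bp before the gene, on its own strand, 8 of the 17 members with an optimal-list summit held the paired element and 5 held the B box core, 13 in all and none with both. Of the 26 members with a pooled-list summit only, 4 held either element, 15.4%, and of the 173 members with no summit 19 did, 10.98%. In tiles of 150 bp over the genome, read on 1 strand, the paired element was in 0.0392% and the B box core in 2.71%.

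Read the other way, of the 36 members with either element 17 had a pooled-list summit (47.2%) and 13 an optimal-list one (36.1%), against 26 (14.4%) and 4 (2.22%) of the 180 with neither. Since the elements were chosen from sequences at these same summits, a higher share among genes that hold them was built in by the choice. Outside hosts 16 of 30 genes with either element had a pooled-list summit (53.3%), against 26 of 100 with neither. Members on the host's strand held either element in 24 of 182 cases, 13.2%, and members on the opposite strand in 12 of 33, 36.4%. Among members with a pooled-list summit the paired element began 57 to 83 bp before the gene in 10 cases, with the summit a median of 33 bp after its first base. The B box core began 10 to 44 bp before the gene in 7 cases, where for C51F7.3 only the match nearest the gene was counted. The summit lay a median of 8 bp before the first base of the core, with a wide range from -81 to 16 bp, where negative is before it.

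Members with a pooled-list summit had a median length of 99 bp, against 129 bp for those without, and outside hosts the medians were 115 and 153.5 bp. Lengths were not tested. ACA lay in the last 8 bases, where box H/ACA snoRNAs carry it, in 12 of 43 members with a pooled-list summit and 56 of 173 without. TGATGA, the core of the C box, lay in the first 20 bases of 2 and 10, and CTGA, the D box, in the last 15 bases of 13 and 36. Annotated ends need not be the ends of the mature RNA, so no member was assigned to a class.

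By chromosome, pooled-list summits were at 12 of 44 members on I, 10 of 43 on II, 4 of 44 on III, 6 of 36 on IV, 9 of 39 on V and 2 of 10 on X. Exons of a protein-coding gene were overlapped by 47 of the 216 members, and without these 36 of 169 had a pooled-list summit and 15 an optimal-list one. With 500 bp on either side in place of 250 bp, 24 members had an optimal-list summit, 7 more, and with 100 bp 16 did.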

How the data were processed

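ChIP-seq peak lists of 2 biological replicates were used. Per the deposited file lists, the authors called peaks together with background on each replicate and on the pooled alignments, with control alignments, and kept a reproducible subset by irreproducible discovery rate (IDR). Names of the aligner and the peak caller were not given in the sources used here. The signal of a peak and the −log10 of its q-value are as deposited. Peaks were ranked by the signal alone, and the q-value is given only as a range at members with a summit. The lists are on build ce11, which is WBcel235, the build of the Ensembl release 115 annotation and of the RefSeq sequence. The ce10 lists were not used. Peak lists give no depth, so intervals cover counting error over genes only.

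Shares were compared with two-sided Fisher's exact tests and sides with an exact binomial test, Benjamini-Hochberg adjusted over 6 tests with a threshold of 0.05. Members of 1 host can share a summit and are not independent, and p-values cover counting over genes and summits, not variation between worm cultures. Leaving out a replicate meant taking, from the list of the other replicate, as many of its strongest peaks as the list in question holds. Alternatives changed the window, list, replicate, unit, members or motif, and leaving out windows with another small RNA gene was chosen after seeing the data. The members and lists were chosen with earlier results of these data known. The named genes are all members with an optimal-list summit, the 10 strongest others, hosts of 2 or more members with a summit, and the 10 strongest genes outside hosts. The comparison of members with genes outside hosts in the optimal list and the count of upstream summits were tested on simulated data. The strand and motif comparisons were not. Python 3.11.15, numpy 2.4.6, scipy 1.17.1 and matplotlib 3.10.9 were used.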

Additional observations from a re-analysis of the deposited data

How the results depend on the processing

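Each of the 6 results kept its direction under every alternative run, 59 values in all, and the upstream position of summits also passed the threshold in all 8 of its alternatives (excess over 50% from 32.6 to 50 percentage points, highest exact adjusted p = 0.009855). Members minus genes outside hosts in the pooled list, -12.4 percentage points, no longer passed with windows of 500 bp (-8.54), with peak overlap in place of summits (-9.93), without promoter windows (-7.06) or without members that overlap an exon (-11.01), and was -11.03 to -10.1 with 1 replicate left out. In the optimal list this difference, -5.21, passed in the stronger 50% of the list (-4.77, with 3 members) and was -7.52 to -3.97 with 1 replicate left out. The host's strand minus the opposite strand in the pooled list, -22.9, did not pass with windows of 500 bp (-17.4), in the stronger 50% (-9.67) or without promoter windows (-12.5), and was -11.6 to -7.76 with 1 replicate left out. The GATA motif at member summits minus other summits, -21.3, did not pass with windows of 500 bp (-11.5), within 25 bp of the summit (-11.3) or for GATA alone (-13.5). The cause of these changes was not tested. Leaving out windows with another small RNA gene, chosen after seeing the data, changed no call. With 2 replicates and unknown depth, single weak sites cannot be ranked reliably. No paired analysis was possible because there is 1 group.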
